A study of Gallus gallus with 10 samples.

Results

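Cell cycle and centromere genes were examined in whole embryonic chicken brain as a group defined by name. A gene belonged if its current symbol began with MCM, CENP, CCN, CDK or CDC in the form used for minichromosome maintenance proteins, centromere proteins, cyclins, cyclin-dependent kinases with their inhibitors, and cell division cycle proteins. On the array 105 of 13051 genes met this rule, measured by 216 probe sets, and 43 of them had 1 probe set only. Of the 105, 10 lie on the Z chromosome and 95 on autosomes. The rule reads a name and no measured value, so it also takes in genes that share a name stem without a part in the cell cycle, such as the effectors of the small GTPase CDC42. The assembly bGalGal1.mat.broiler.GRCg7b lists 116 genes with such names. CCNO on Z and CCNT1, CDC6, CDK2, CDK2AP2, CDK5R1, CDK5R2, CDK5RAP3, CDKN1C, CENPA and MCM4 on other chromosomes were not analysed here.

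Total RNA from whole brain was hybridised to Affymetrix chicken arrays, 1 array per sample, with 5 samples labelled male and 5 labelled female. No treatment or altered genotype is named. The sources used here do not give embryonic age, breed, the way sex was assigned or the number of animals per sample. P-values therefore cover the spread among the 10 samples, part of which may be technical. Male birds carry 2 Z chromosomes and females a Z and a W.

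Dividing cells license replication origins by loading the ring-shaped MCM helicase, and cyclins paired with CDKs then fire the origins and drive entry into mitosis. Inhibitor proteins restrain the kinases, and the anaphase-promoting complex ends mitosis by marking cyclins for destruction. At the centromere a constitutive network of CENP proteins sits on chromatin that holds the histone CENPA and carries the kinetochore, which binds the spindle. In the embryonic brain these genes are known mainly from the progenitors that line the ventricles, while neurons have left the cycle. Several family members act elsewhere, as CDK5 does in neurons and the kinases and cyclins of transcription do in all cells.

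All levels are log2(intensity + 16), and differences are male minus female on that scale with limma's standard error. A gene was called expressed at a mean level of 9.33 or more, the median of the probe sets tested. By this measure 93 of the 105 genes were expressed, 8 on Z and 85 on autosomes. Over the whole array 9287 of 13051 genes were, with 445 of 606 on Z and 8728 of 12229 on autosomes. The 12 dim genes were CCNJL, CDC42EP2, CDK3, CDK15, CDK18, CDKN2A, CDKN2B, CDKN2C, CENPJ, CENPO, CENPU and MCM10. Probe sets for viral sequences, a measure of background, had a median level of 6.15, with arrays between 5.41 and 6.32. All 8 markers of neural progenitors and all 8 of neurons were expressed, none past the threshold between the sexes. Of 17 genes on W, 10 passed the threshold as higher in females, and every female exceeded every male in 10.

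Of the cell cycle and centromere genes, 4 were higher in males and none was higher in females at a limma adjusted p under 0.05 over all genes. They were CENPH, CDK7, CDC42SE2 and CENPK, all on Z, and in each of them every male exceeded every female. Before adjustment 9 of the 105 genes had a limma p under 0.05, or 8.57%, beside 7.62% of all genes. Over all genes 1.59% were called higher in males and 0.207% higher in females. Among Z genes 33.2% were called higher in males and 0.33% higher in females, and the 4 of 10 Z genes of this group are to be read against the former share. Every male exceeded every female in 42.1% of Z genes and every female exceeded every male in 0.33%, against 4 and 0 of these 10.

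The median difference of the 10 Z genes was 0.56, a male to female ratio of 1.48, beside a median of 0.40 and a ratio of 1.32 for all 606 Z genes. Among the 8 expressed ones the median was 0.64, a ratio of 1.56, beside 0.47 and 1.39 for 445 expressed Z genes. The 95 autosomal genes had a median of -0.003. In bulk tissue fewer cells of a type and less RNA per cell cannot be told apart. Before adjustment 3 of 5 pigment and eye markers had a limma p under 0.05, beside 7.62% of all genes. All 5 had lower means in males, but 0 of 5 passed the threshold and 4 of 5 were dim. Their summed intensity was 1592 to 2077 in males and 2179 to 2847 in females, without overlap. Such a sum is weighted to the brightest genes, and every female lay above every male in 0 of the 5 markers taken singly. The 4 choroid plexus markers were also all lower in males, with a median of -0.14, and their summed intensity was 110428 to 144987 in males and 129679 to 155055 in females. In CLIC6, a chloride channel gene of that list, every female lay above every male, with a difference of -0.78 (SE 0.24, limma adjusted p = 0.29). This held for 1 of the 4 markers, beside 0.662% of all autosomal genes. Of 5 vessel markers, 4 had a positive difference and 1 passed, beside 1.59% of all genes called higher in males. The one that passed was FLT1, at 0.32 (SE 0.06, limma adjusted p = 0.034). Differences were positive in 1 of 5 red cell markers, 3 of 5 muscle markers and 4 of 4 leukocyte markers, and none of these passed. The part of these tissues in the differences below was not tested.

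**Figure D1:**
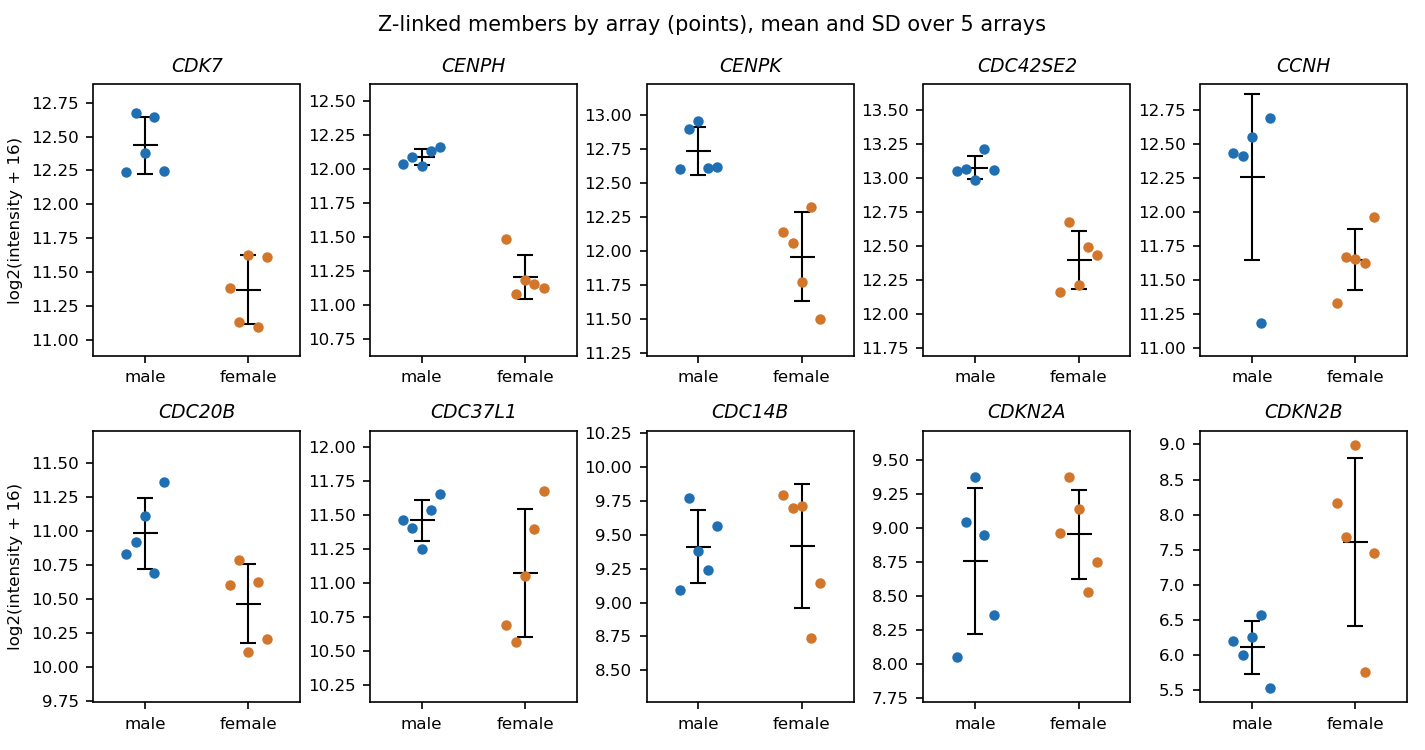
Level of the 10 Z-linked genes on each array, as log2(intensity + 16), with males in blue and females in orange, and the mean and SD over 5 arrays in black; panels differ in range. In CDK7, CENPH, CENPK and CDC42SE2 every male lies above every female, and in CCNH male replicate 4 lies below all 5 females.

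CDK7 is the kinase of the CDK-activating complex, which phosphorylates other CDKs and, as part of the transcription factor TFIIH, RNA polymerase II. In males CDK7 read 12.24, 12.67, 12.38, 12.64 and 12.25, and in females 11.39, 11.13, 11.63, 11.10 and 11.62. The lowest male, at 12.24, stood above the highest female, at 11.63. The SD was 0.21 in males and 0.25 in females. The difference was 1.06 (SE 0.14), a ratio of 2.09 with a limma adjusted p of 0.0035. The complex has 2 further subunits, the cyclin CCNH, also on Z, and the assembly factor MNAT1 on chromosome 5, which is not in the name group.

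CCNH read 12.44, 12.42, 12.56, 11.19 and 12.70 in males and 11.33, 11.67, 11.65, 11.63 and 11.96 in females. Male replicate 4 fell below every female while the other 4 males lay above every female. The difference of 0.61 (SE 0.27) did not pass, with a limma adjusted p of 0.65. The other CCNH probe set read 11.41, 10.84, 10.83, 11.03 and 10.95 in males and 10.26, 10.20, 10.36, 10.50 and 10.50 in females. There male replicate 4 lay among the other males and all 5 males lay above all 5 females, with a difference of 0.65 (SE 0.13). The low value of male replicate 4 is thus seen on 1 of the 2 probe sets. Without male replicate 4 the difference on the main probe set was 0.88 and passed, with a limma adjusted p of 0.010. When probe sets whose suffix marks possible cross-hybridisation were left out, the other probe set stood for CCNH, which then passed with a limma adjusted p of 0.034 and made 5 genes of the group higher in males. MNAT1 did not pass, at 11.84 ± 0.03 (SD, n = 5) in males and 11.87 ± 0.18 in females, a difference of -0.02 (SE 0.09).

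Among the 15 measured genes of the constitutive centromere network, CENPH and CENPK are the 2 on Z and the 2 that passed. Both belong to the CENP-H/I/K/M group, which lies between centromeric chromatin and the outer kinetochore. CENPH read 12.04, 12.09, 12.02, 12.13 and 12.17 in males and 11.49, 11.08, 11.18, 11.15 and 11.13 in females. The males lay closer together than the females, and female replicate 1 was the highest female. The difference was 0.88 (SE 0.08), a ratio of 1.85 with a limma adjusted p of 0.00039.

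CENPK read 12.61, 12.90, 12.95, 12.61 and 12.62 in males and 12.14, 12.06, 11.77, 12.33 and 11.50 in females. All males were above all females, but the females spread over a wider range. The difference of 0.78 (SE 0.16) was a ratio of 1.71, and its limma adjusted p of 0.043 was close to the threshold. Leaving out any 1 male, or female replicate 1, 2 or 3, raised the limma adjusted p to between 0.071 and 0.12, and the difference stayed between 0.66 and 0.87 whichever array was left out. Adjusted over all probe sets in place of genes, the limma adjusted p of CENPK was 0.094, while CENPH, CDK7 and CDC42SE2 passed. With the mean over probe sets of every gene it was 0.055.

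CDC42SE2, a small effector of the GTPase CDC42 and no cell cycle gene by role, read 13.05, 13.06, 12.99, 13.22 and 13.06 in males. In females it read 12.16, 12.68, 12.21, 12.49 and 12.43, all below the lowest male. The difference was 0.68 (SE 0.10), a ratio of 1.60 with a limma adjusted p of 0.0078. Its autosomal relative CDC42SE1 had a difference of the other sign, -0.46 (SE 0.19), which did not pass, with a limma adjusted p of 0.59. The 3 probe sets of CDC42SE1 ran from -0.57 to 0.15.

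The other Z genes did not pass. CDC20B, a relative of the anaphase-promoting complex activator CDC20, read 10.83, 10.92, 11.11, 10.69 and 11.36 in males and 10.60, 10.78, 10.11, 10.62 and 10.20 in females. In CDC20B 4 males lay above all females, and the difference was 0.52 (SE 0.17, limma adjusted p = 0.34). CDC20 itself, on an autosome, had a difference of -0.03 (SE 0.09). CDC37L1, a relative of the HSP90 cochaperone CDC37, had a difference of 0.39 (SE 0.21, limma adjusted p = 0.77), with males between 11.25 and 11.66 inside the female range of 10.56 to 11.68. Its other probe sets, dimmer at mean levels of 8.04 and 8.17, had differences of -0.20 and -0.10. With the mean over its probe sets the difference of CDC37L1 was 0.03.

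CDC14B, a phosphatase that acts on CDK substrates, gave different answers by probe set. The brightest of its 5 probe sets read 9.41 ± 0.27 in males and 9.42 ± 0.46 in females (SD, n = 5), a difference of -0.01 (SE 0.22, limma adjusted p = 0.997). This probe set has a suffix that the manufacturer uses where probes may hybridise to other transcripts, and its mean of 9.41 was only slightly above the 9.38 of the next. The other 4 probe sets had differences of 0.65, 0.79, 0.85 and 1.23. On the one with 0.79 (SE 0.18) every male lay above every female, at 9.93, 10.17, 9.85, 9.33 and 9.59 in males and 8.89, 8.74, 9.19, 8.79 and 9.28 in females. None of the 5 passed when all probe sets were adjusted together. With the mean over the 5 probe sets in place of the brightest, the difference of CDC14B was 0.70 and passed, with a limma adjusted p of 0.031.

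**Figure D2:**
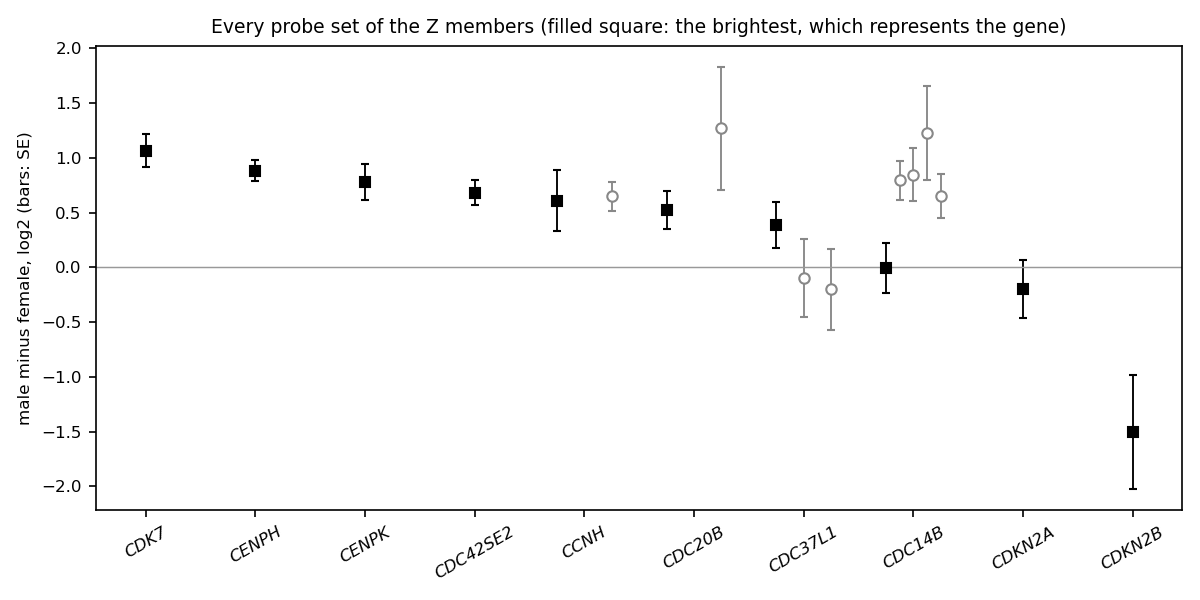
Male minus female difference, in log2 units with its standard error, of each probe set of the 10 Z-linked genes; the filled square is the brightest probe set, which stands for the gene. The filled square of CDC14B lies at -0.01 and its other 4 probe sets at 0.65 to 1.23, while the 2 probe sets of CCNH lie at 0.61 and 0.65.

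CDKN2A and CDKN2B are neighbours on Z and encode inhibitors of the cell cycle, CDKN2B one that binds the kinases paired with D cyclins. Both were dim. CDKN2A read 8.05 to 9.38 in males and 8.53 to 9.38 in females, a difference of -0.20 (SE 0.26, limma adjusted p = 0.93). CDKN2B read 6.20, 6.01, 6.26, 6.57 and 5.53 in males and 8.17, 7.69, 8.99, 5.76 and 7.45 in females. The male mean of 6.11 was at the level of the viral probe sets, 4 of 5 females lay above every male, and female replicate 4 lay inside the male range. The difference of -1.50 (SE 0.52) did not pass, with a limma adjusted p of 0.41. Without female replicate 4 it was -1.96 and passed as higher in females, with a limma adjusted p of 0.023.

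Z genes were then set against an autosomal gene on the same array. This was a partner of the same complex, or CDK6 for the inhibitor genes CDKN2A and CDKN2B. Binding of CDK6 by the CDKN2A product is not assumed. The sex difference of that log2 difference was tested for 8 pairs. An exact two-sided permutation test over all arrangements of the sex labels can give no p below 0.0079, and p-values were adjusted over the 8 pairs. The pairs were chosen with earlier results of these data known, so the p-values are no independent support. Only the shift between the sexes is read, since 2 probe sets differ in brightness for other reasons. CDK7 minus MNAT1 was 0.39, 0.83, 0.58, 0.77 and 0.41 in males and -0.57, -0.85, 0.03, -0.92 and -0.15 in females. The sexes did not overlap, and the shift was 1.09 (exact permutation p = 0.0079, adjusted 0.021). CENPH minus CENPI shifted by 0.76 and CENPH minus CENPM by 0.82, also without overlap and with the same exact p and adjusted p.

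CENPK minus CENPM shifted by 0.72 (exact permutation p = 0.016, adjusted 0.032), with 4 males above all females. CENPK minus CENPI shifted by 0.65 and did not pass, with an adjusted exact permutation p of 0.051. Female replicate 4, at 2.16, lay above 3 of the 5 males. CCNH minus MNAT1 shifted by 0.63 (adjusted exact permutation p = 0.091), with male replicate 4 at -0.69 and the other males between 0.58 and 0.86. CDKN2A minus CDK6 shifted by -0.20 and CDKN2B minus CDK6 by -1.50, with adjusted exact permutation p-values of 0.58 and 0.053.

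**Figure D3:**
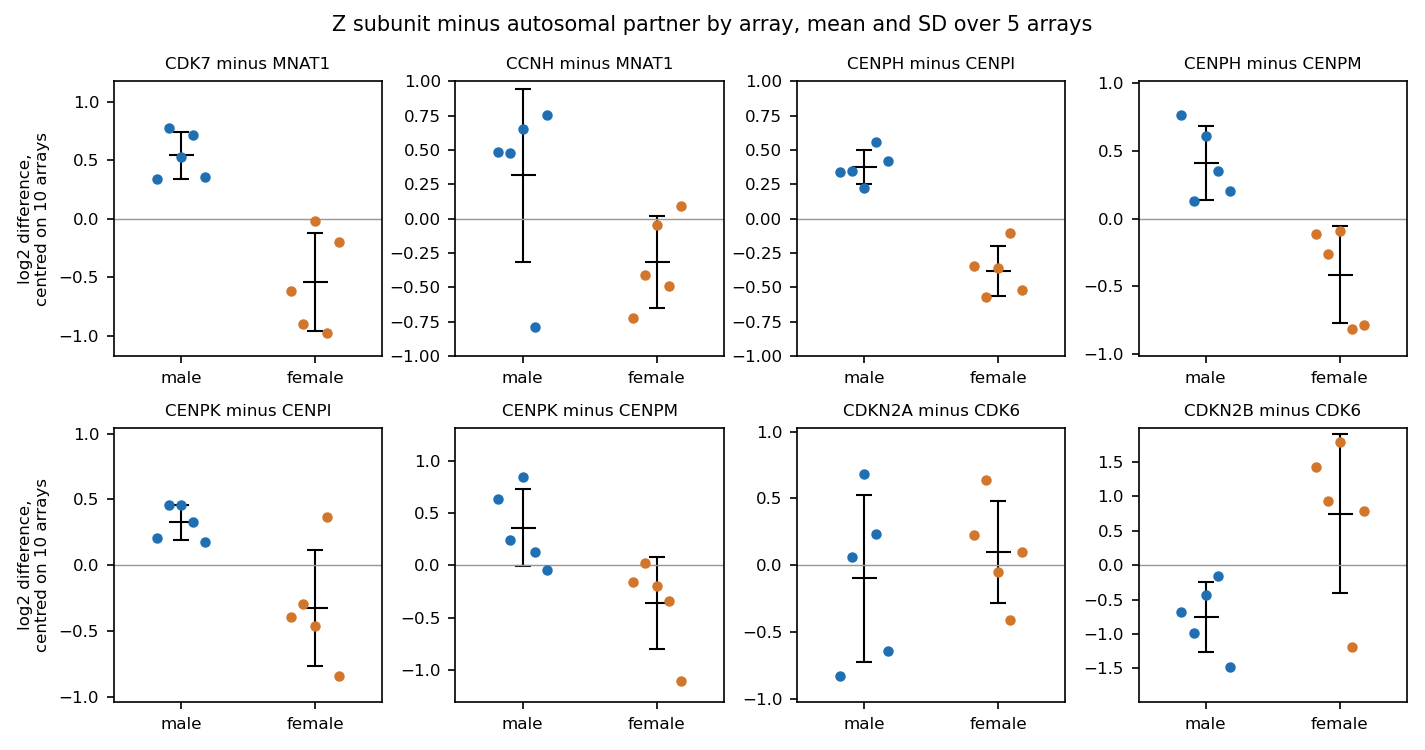
Log2 level of a Z-linked gene minus that of an autosomal gene on each array, centred on the mean of the 10 arrays. Males are in blue and females in orange, with the mean and SD over 5 arrays in black. In CDK7 minus MNAT1, CENPH minus CENPI and CENPH minus CENPM the sexes do not overlap, with shifts of 1.09, 0.76 and 0.82.

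In the gene order of Z in the same assembly, CENPH and CDK7 lie close together with MRPS36 between them, and CENPK lies nearby. MRPS36 had a difference of 0.81 (SE 0.06) and SLC30A5, a zinc transporter gene on the other side of CENPH, one of 0.65 (SE 0.07), and both passed with limma adjusted p-values of 0.00013 and 0.00083. SERINC5, the measured gene beyond CDK7, had a difference of 0.31 (SE 0.10) and did not pass, with a limma adjusted p of 0.31. Over the 10 measured genes closest in order to CDK7 the median difference was 0.32, from -0.21 to 0.88, and over the 10 closest to CENPK it was 0.73, from -0.01 to 0.97. Differences within this stretch thus ran from below 0 to that of CDK7. The measured genes on either side of CDC42SE2, SPTLC1 and LYRM7, had differences of 1.10 and 0.04, and those on either side of CCNH, TMEM161B and RASA1, of 1.01 and 0.88. Of these 4, SPTLC1 and RASA1 passed. MTAP, beside CDKN2A, passed as higher in males, with a difference of 0.80 (SE 0.11) and a limma adjusted p of 0.0034.

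No autosomal gene of the group passed in either direction, 0 of 95, where 0.0409% of all autosomal genes were called higher in males and 0.106% higher in females. Every male exceeded every female in 0 of the 95 and every female every male in 0, beside 0.188% and 0.662% of all autosomal genes. A limma p under 0.05 before adjustment was found for 3 of the 95, or 3.16%, and for 5.08% of all autosomal genes. These 3 were CDC14A at -0.38, CDC42SE1 at -0.46 and CENPQ at 0.18, named after their values were seen. The 5 probe sets of CDC14A ran from -0.38 to 0.45, and 3 of them were positive. In 71 of the 95 the 95% interval of the difference lay within a 1.5-fold change in either direction, so a change of the size seen in CDK7 lay outside the interval in these. The interquartile range of the autosomal differences was -0.10 to 0.07.

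**Figure D4:**
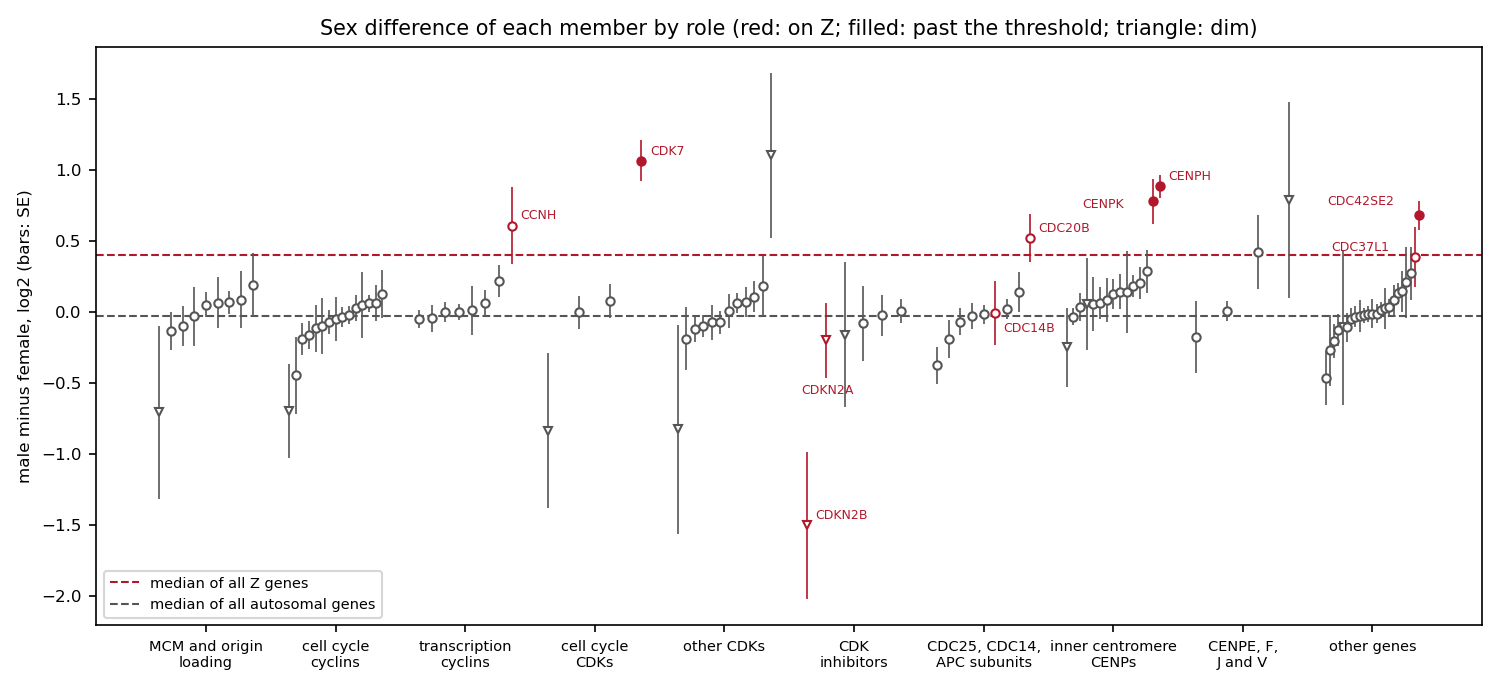
Male minus female difference of the 105 genes in log2 units with its standard error, ordered within roles; Z-linked genes are red and named, filled symbols passed the threshold and triangles are dim genes. Dashed lines are the medians of all Z genes, 0.40, and of all autosomal genes, -0.03; the expressed autosomal genes lie between -0.46 and 0.42.

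The helicase genes MCM2, MCM3, MCM5 and MCM6 were expressed, and none passed. MCM2 read 11.73, 11.67, 11.49, 11.55 and 11.70 in males and 11.68, 11.41, 11.77, 11.56 and 11.47 in females. MCM3 read 10.33, 10.71, 10.48, 10.82 and 10.75 in males and 10.95, 10.52, 10.61, 10.71 and 9.96 in females. The sexes overlapped in both, with differences of 0.05 (SE 0.09) and 0.07 (SE 0.18). MCM5 read 11.03, 11.83, 11.71, 11.63 and 11.63 in males and 11.52, 11.62, 11.61, 11.77 and 11.79 in females, with male replicate 1 the lowest array. MCM6 read 13.45, 13.53, 13.37, 13.13 and 13.39 in males and 13.30, 13.39, 13.22, 13.28 and 13.33 in females. Their differences were -0.10 (SE 0.14) and 0.07 (SE 0.08). MCM8 and MCM9, helicases of DNA repair, and CDC45 and CDC7, which act at origin firing, differed by 0.09, -0.03, 0.19 and -0.13. MCM10 was dim, at 8.62 ± 1.03 in males and 9.32 ± 1.05 in females (SD, n = 5).

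Of the 15 cell cycle cyclins, all autosomal, 14 were expressed, 5 had a positive difference and none passed, with a median of -0.05. CCNA2, the cyclin of S phase and early mitosis, was at 12.94 ± 0.06 in males and 12.88 ± 0.09 in females (SD, n = 5). The D cyclins, which carry growth signals to the cycle, did not pass, with differences of -0.03 (SE 0.07) for CCND1, -0.02 (SE 0.06) for CCND2 and -0.19 (SE 0.11) for CCND3. The E cyclins, which act at entry into S phase, were close to the level at which a gene was called expressed. CCNE1 read 9.14 ± 0.58 in males and 9.58 ± 0.28 in females and CCNE2 9.58 ± 0.36 and 9.45 ± 0.15 (SD, n = 5), with overlap in both. CCNJL, a dim relative of cyclin J, had a difference of -0.70 (SE 0.33, limma adjusted p = 0.71). Apart from CCNH, the 7 cyclins listed under transcription and splicing differed by -0.05 to 0.22, a list that also holds CCNY and CCNYL1.

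Among the kinases, CDK1, the kinase of mitosis, read 14.35 ± 0.09 in males and 14.27 ± 0.25 in females (SD, n = 5), where female replicate 5 at 13.86 was the lowest array. CDK6, a partner of the D cyclins, read 11.83 ± 0.15 and 11.83 ± 0.22, and CDK5, a kinase of neurons, 11.93 ± 0.24 and 11.92 ± 0.11. Their differences were 0.08, -0.002 and 0.01. The largest differences among all autosomal genes of the group were those of dim kinases, 1.10 (SE 0.58) for CDK15, -0.84 (SE 0.55) for CDK3 and -0.83 (SE 0.74) for CDK18. Their limma adjusted p-values were 0.76, 0.83 and 0.89. The inhibitors CDKN1A and CDKN1B, which bind CDK complexes and hold cells out of the cycle, differed by -0.02 (SE 0.14) and 0.01 (SE 0.08).

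Of the 13 autosomal genes of the centromere network, 11 had a positive difference, or 84.6% against 42.7% of all autosomal genes, and none passed. Their median was 0.09 against -0.03 for all autosomal genes. The share was the highest among the roles, the lowest being 25% for autosomal CDK inhibitors. It depends on the probe set chosen. CENPL, CENPM, CENPN, CENPP and CENPT, counted as positive, each also had a negative probe set, while CENPO did not. The negative probe sets of CENPL, CENPM, CENPN and CENPT were dim, at mean levels of 7.98, 7.87, 6.69 and 9.19. That of CENPP, at 10.94, had a difference of only -0.02. CENPU, counted as negative, also had a positive probe set, dim at 8.67. CENPC, which anchors the network on CENPA chromatin, was at 10.57 ± 0.11 in males and 10.43 ± 0.26 in females (SD, n = 5). The partners of CENPH and CENPK did not pass, with differences of 0.13 (SE 0.10) for CENPI and 0.06 (SE 0.19) for CENPM. The CENP-O/P/Q/U genes CENPO, CENPQ and CENPU differed by 0.05, 0.18 and -0.25, and CENPW, a histone-fold protein of the network, by 0.29 (SE 0.15, limma adjusted p = 0.77). CENPE, the mitotic motor, read 9.43, 10.12, 9.98, 10.01 and 10.14 in males and 9.31, 8.94, 9.20, 9.83 and 10.31 in females. Its difference of 0.42 (SE 0.26) did not pass, with overlapping sexes. CENPF, a protein of the outer kinetochore, differed by -0.18 (SE 0.25), and CENPJ, a dim centriole gene, by 0.79 (SE 0.69). CDK5RAP2, a centrosome gene, differed by 0.27 (SE 0.18).

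Genes outside the name group that act with it were counted from 3 lists. Of 30 measured genes of origin licensing and replication none passed, with a median of 0.01. PCNA, the sliding clamp of DNA polymerase, differed by -0.01 (SE 0.07), TOP2A, which untangles DNA, by 0.06 (SE 0.08) and the proliferation marker MKI67 by 0.07 (SE 0.12). Of 22 genes of RB and E2F control 1 passed, CKS2, a small CDK-binding protein encoded on Z, with a difference of 0.85 (SE 0.12, limma adjusted p = 0.0053). Of 30 genes of the kinetochore, spindle checkpoint and mitotic kinases 1 passed, PLK2, a polo-like kinase on Z, with 0.44 (SE 0.07, limma adjusted p = 0.012). The largest difference of that list, 0.64 in another gene, did not pass. These counts stand beside 1.59% of all genes and 33.2% of Z genes called higher in males. SKP2, a ubiquitin ligase subunit that targets CDKN1B and also on Z, differed by -0.08 (SE 0.17), which did not pass.

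Variation shared among the arrays was described after each gene was centred within each sex, for the 93 expressed genes over 10 arrays. The median Pearson correlation of their 4278 pairs was 0.01, with an interquartile range of -0.28 to 0.29. Over all 9287 expressed genes the median was 0.002, with a range of -0.28 to 0.28 between the same quartiles. Correlations above 0.7 made up 2.78% of the pairs in the group and 2.62% of all pairs. The leading principal component took 26.2% of the variance in the group and 23.9% in all expressed genes. All points share the same 10 arrays, and centring removed a mean per sex.

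Correlations within complexes were of mixed sign. MCM2, MCM3, MCM5 and MCM6 had a median correlation of -0.02 over their 6 pairs, the highest being 0.35 for MCM2 with MCM3. CDK7 had a correlation of -0.28 with CCNH and -0.65 with MNAT1. CENPH correlated at 0.15 with CENPK and at 0.42 with CENPI. CDK1, CCNB1 and MCM3 were more alike, with 0.78 for CDK1 with CCNB1 and 0.90 for CCNB1 with MCM3, pairs named after their values were seen. All 3 genes were lowest in female replicate 5 among the females, and without that array these values were 0.43 and 0.76. The gene listed as CCNB1 carries CCNB2 among its synonyms, so which B cyclin it is was not settled here.

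**Figure D5:**
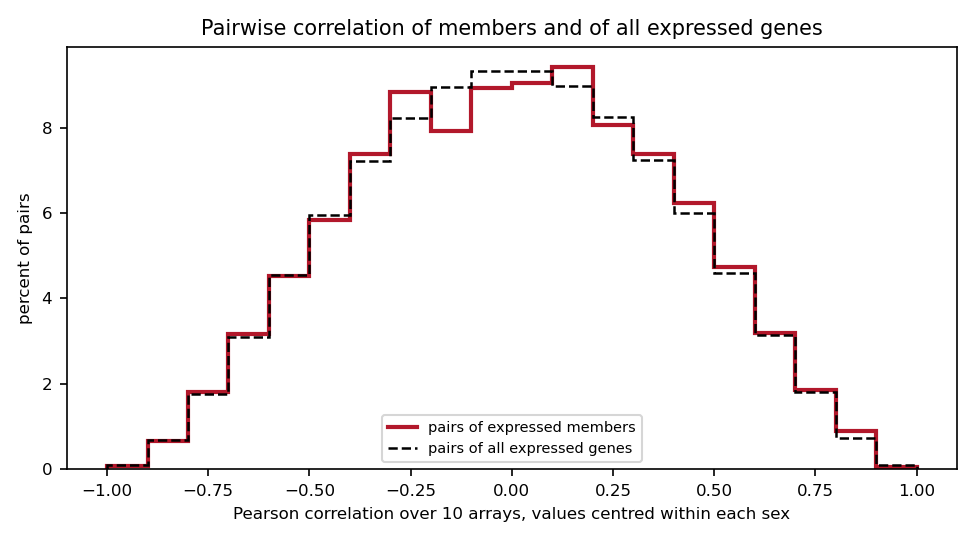
Percent of gene pairs by Pearson correlation over 10 arrays after centring within each sex, for the 93 expressed genes of the group (red) and all 9287 expressed genes (black, dashed). The medians are 0.01 and 0.002, and the outlines nearly coincide.

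The genes outside the group most like the median of MCM2, MCM3, MCM5 and MCM6, by Pearson correlation over the 10 centred arrays, were NET1 at 0.91, BLB1 at 0.86, CAB39L at 0.86, NT5C1A at 0.84 and ECT2 at 0.84. They are the highest among all expressed genes outside the group, over 10 points. Within the group CENPN at 0.88 and CDK5 at 0.81 were the most alike, leaving aside the 4 genes themselves. The 4 genes did not vary together, with a median pairwise correlation of -0.02, so their median is no shared MCM pattern. MCM3, the most like it of the 4, reached 0.64.

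The spread within a sex set what could be seen for each gene. Among expressed genes of the group the SD within sex ran from 0.04 for CCNDBP1 to 0.49 for CENPL, with a median of 0.18. CENPL, CCNH, CCNE1, CDKN3, CENPE, CENPF, CDC42EP1 and CCNI2 had the largest SDs, all 0.42 or more. The 12 dim genes had a median SD of 0.91. Of the 10 genes with the largest differences among the autosomal ones, 5 in each direction, 6 were dim.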

How the data were processed

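Affymetrix probe set values from 5 male and 5 female whole brain samples were used. The deposited values are intensities on a linear scale, 1 per probe set, and were scaled per array before deposit: without the highest and lowest 2%, the mean was 2500 on each array. The software behind them is not stated in the labels, and no detection calls were used. The arrays had median intensities of 594 to 721. Precision is limited by the number of arrays.

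Of 38535 probe sets, 96 controls were left out. Symbols came from the platform annotation, updated by gene identifier to the assembly bGalGal1.mat.broiler.GRCg7b. Of the 38439 remaining, 27168 had 1 symbol, and the 177 with several and the 11094 without one named no gene. Of 13051 genes, 12872 matched by identifier, 1 by accession and 178 did not. The brightest probe set over the 10 arrays stood for a gene. Levels are log2(intensity + 16), which understates the fold change of dim genes. No sequences or coordinates are printed, since no sequence table and no build of the array were in hand.

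Sex differences were fitted over all genes with lmFit and eBayes of limma 3.58.1 (R 4.3.3) and adjusted by Benjamini-Hochberg over all of them at 0.05. The fit was tested on simulated data. Pairs of a Z gene and an autosomal gene were tested by exact permutation with SciPy 1.17.1. Intervals are 95% intervals of the moderated fit. Probe set results come from the same fit over all probe sets.

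The genes, lists and pairs were chosen with earlier results of these data known. Named were all Z genes and all genes past the threshold, a fixed list of core MCM, cyclin, CDK, inhibitor and CENP genes, the partners of the Z subunits, the 8 expressed genes with the largest SD within sex, the 5 autosomal genes most different in each direction and the 5 other genes most like the MCM median. Alternatives were other pseudocounts, quantile normalization, centring on autosomal genes, expressed genes only, the mean over probe sets, leaving out probe sets with suffixes that mark possible cross-hybridisation, other variance models, array weights, a block on title letters, Spearman correlation and leaving out each array.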

Additional observations from a re-analysis of the deposited data

Results flagged for a closer look

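In 8 of 108 groups of 5 arrays, 1 array lay far from the other 4 by Dixon's criterion. The groups were 54 items, named genes of the group and the 8 pairs, in each sex. Chance alone meets the criterion in about 1 in 20 independent groups. That rate is no yardstick here, since pairs reuse the values of their genes and some genes were named for a large spread. CCNH in male replicate 4 was low, at 11.19 against 12.42 to 12.70 in the other males, and CCNH minus MNAT1 was low in the same array, at -0.69 against 0.58 to 0.86. The other CCNH probe set read 11.03 there, within the male range. CDKN1A was also low in male replicate 4, at 11.56 against 12.04 to 12.21. In male replicate 1, MCM5 was low at 11.03 against 11.63 to 11.83, and CENPE at 9.43 against 9.98 to 10.14. CENPQ was low in male replicate 3, at 11.72 against 11.90 to 11.96. CENPH was high in female replicate 1, at 11.49 against 11.08 to 11.18, which still lay below every male. CENPJ, a dim gene, was low in female replicate 4, at 5.06 against 8.18 to 8.56.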

How the results depend on the processing

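Under the 2 other pseudocounts, quantile normalization, centring on autosomal genes, expressed genes only, the other variance model and array weights, CENPH, CENPK, CDC42SE2 and CDK7 were called and no other gene of the group was. Of 908 single-gene values under all alternatives, 891 kept their side of the threshold, 13 lost a call and 3 gained one. Most of the 908 belong to genes that were not called in the main fit and had no call to lose. All 13 losses fell in CENPK, CDK7, CENPH and CDC42SE2, with 8 for CENPK when 1 array was left out and 2 under other settings. Of the 908, 69 changed sign, and CDC14B, at 0.70 with the mean over probe sets, is the one that was also called there.

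The median of the Z genes was 0.64 with expressed genes only, 0.69 with the mean over probe sets and 0.66 without probe sets whose suffix marks possible cross-hybridisation. Under each of these settings CENPK minus CENPI passed, with a shift of 0.65. That shift is the same as in the main analysis, so only the adjustment over the pairs changed. CCNH minus MNAT1 passed at 0.65 with the mean over probe sets and at 0.67 without those probe sets, and CDKN2B minus CDK6 at -1.65 and -1.50. The value of -1.50 is also that of the main analysis, with only the adjustment changed. CENPK minus CENPM no longer passed with the mean over probe sets, at 0.78.

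Whether letters in the titles pair the samples was not settled, and the main fit did not pair them. Same-letter correlations of deviations were 0.04, 0.13, 0.003 and 0.009, and not every sample correlated best with its own letter. With the letters as a replicate block over 8 arrays, 1 gene of 13051 was called and 0 of the group. CDK7 minus MNAT1 was then 1.12, CENPH minus CENPI 0.77, CENPH minus CENPM 0.81 and CENPK minus CENPM 0.70, each with an adjusted exact p of 0.25, and 4 pairs cannot give an exact p below 0.125.

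Leaving out 1 array at a time, 3 to 4 genes were higher in males and 0 to 1 higher in females, the latter CDKN2B without female replicate 4. The Z median ran from 0.46 to 0.62, CCNH minus MNAT1 from 0.52 to 0.91, CENPK minus CENPI from 0.52 to 0.82, CENPK minus CENPM from 0.53 to 0.82 and CDKN2B minus CDK6 from -1.98 to -1.24. CCNH minus MNAT1 passed without male replicate 4. CENPK minus CENPI and CDKN2B minus CDK6 passed without female replicate 4. CENPK minus CENPM lost its call without 7 of the 10 arrays in turn, with adjusted exact permutation p-values from 0.032 to 0.063. With 1 array fewer there are fewer arrangements of the labels, so the smallest possible p is higher. CDK7 minus MNAT1, where the sexes did not overlap, then had adjusted exact permutation p-values of 0.025 to 0.042. The median correlation of the 4 MCM genes was -0.23 without male replicate 2 and -0.19 by Spearman correlation. The causes were not tested. Dim genes near the viral probe sets, CDKN2B among them, are limited by signal over background.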
